A study of Arabidopsis thaliana with 9 samples.

Results

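Gibberellin 2-oxidases inactivate gibberellin, a growth hormone, by hydroxylating the molecule or its precursors. The family was followed here through 7 Arabidopsis thaliana loci that the annotation names as such, GA2OX1, GA2OX2, GA2OX3, GA2OX4, GA2OX6, GA2OX7 and GA2OX8, out of 27444 protein-coding nuclear genes. LEAFY (LFY) is a plant transcription factor that promotes floral fate, in part through the gene AP1, and the measurement was its binding to chromatin. A gene was taken as bound when the summit of an LFY peak lay in the gene or up to 3 kb upstream of its start, the first step of the study's own peak annotation. The family was chosen by the fold of the peak upstream of 1 of its members, GA2OX4, so that the values of this peak and the number of bound members are descriptions without a test.

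The enzymes counteract the GA20-oxidases and GA3-oxidases, which make the bioactive hormone. GA2OX1, GA2OX2, GA2OX3, GA2OX4 and GA2OX6 belong to the group that acts on C19 gibberellins, including the bioactive forms. GA2OX7 and GA2OX8 belong to the group that acts on C20 precursors. Low gibberellin stabilises the DELLA repressors, which the GID1 receptors otherwise hand over for degradation once they bind the hormone.

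The chromatin came from callus, made from roots of 3-week-old Landsberg erecta seedlings after 5 days on callus inducing medium. All plants carried 35S:LFY-GR, a fusion of LFY with the steroid-responsive part of the glucocorticoid receptor, and were otherwise labelled wild type. The 3 groups were ChIP with anti-LFY antibodies after 5 µM dexamethasone (dex), which lets the fusion enter the nucleus, the same ChIP after mock treatment, and input from untreated callus without antibody, with 3 samples each. Each ChIP sample combined several ChIP reactions. The sample labels and the methods give 1 h for dex and mock treatment, whereas the text describing the series gives a longer time. The 35S promoter drives the fusion in most cells, so the sites need not be those of LFY at its natural level. A peak list holds no expression, and the callus identity could not be checked against marker genes.

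The list held 1177 nuclear peaks, called by the authors after pooling the 3 dex libraries and, as the control, the 3 mock libraries. Fold is (dex pileup + 1) divided by (local mock background + 1), and had a median of 4.04 (range 2.23 to 18.6). Because libraries were pooled, no value per sample and no error between replicates can be given, and every interval below covers counting error only. Reads at each summit were recovered from the fold and the p-value, which pointed to 16.7 M dex and 13.2 M mock reads in all, with dex reads scaled by 0.788. In this bulk tissue, binding in more cells and stronger binding per cell cannot be told apart.

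The sequences that the results turn on are shown first, on the plus strand of TAIR10 as read from RefSeq (TAIR10.1), with the summit at the base named. Capitals mark a match to the LFY core CCANTGG with up to 1 mismatch, or a W-box (TTGACC or TTGACT on either strand), the element that WRKY factors bind. The next 3 runs are the summits assigned to GA2OX4 and GA2OX2. Both genes lie on the plus strand, so the sequences read towards the gene start.
GA2OX4, near summit (chr1:17697765-17697915, summit at base 76): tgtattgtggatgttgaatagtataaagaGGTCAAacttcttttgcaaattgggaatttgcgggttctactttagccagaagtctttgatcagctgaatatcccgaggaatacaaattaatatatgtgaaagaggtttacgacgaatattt
GA2OX4, far summit (chr1:17696327-17696537, summit at base 106): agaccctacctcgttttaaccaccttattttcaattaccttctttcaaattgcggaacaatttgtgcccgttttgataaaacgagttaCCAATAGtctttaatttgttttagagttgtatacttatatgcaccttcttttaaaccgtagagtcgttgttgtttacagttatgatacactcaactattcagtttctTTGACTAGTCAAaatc
GA2OX2 summit (chr1:10535444-10535594, summit at base 76): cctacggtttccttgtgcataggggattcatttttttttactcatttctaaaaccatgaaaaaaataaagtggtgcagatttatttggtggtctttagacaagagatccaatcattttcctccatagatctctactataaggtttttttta

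LFY summits lay at 2 of the 7 members, GA2OX4 with 2 summits and GA2OX2 with 1. By the same rule 4.32% of protein-coding genes had a summit. The count of members is set beside this share as a description only, since the family was chosen for GA2OX4. GA2OX1, GA2OX3, GA2OX6, GA2OX7 and GA2OX8 had no summit in the gene or upstream window. A gene without a summit is below the threshold of the list, and its reads are not known.

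GA2OX4 (AT1G47990, chromosome 1, 17698598 to 17701041, plus strand) carried its near summit in intergenic DNA at 17697840, 758 bp before the gene start. The peak spanned 17697203 to 17698767. The summit had 489 dex reads against 24 mock reads in the same window. Scaled for depth, dex exceeded mock by a ratio of 16.1, with a 95% exact interval of 10.7 to 25.3. The fold given by the peak caller was 15.5, with a −log10 q-value of 305. Among all nuclear summits it ranked 5 by fold and 4 by q-value. By dex reads alone it ranked 11.

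The peak was also long. Its 1565 bp ranked 3 among nuclear peaks, whose median width was 357 bp. It reached from 1395 bp before the gene start to 170 bp inside the gene, of which 57 bp were exon outside the coding sequence and 113 bp were coding exon. The near peak thus ran over the start of GA2OX4 although its summit did not.

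The far summit of GA2OX4 lay at 17696432, 2166 bp before the gene start and 1408 bp from the near summit (peak 17696151 to 17696777). With 472 dex reads against 27 mock reads, the scaled ratio was 13.8 (9.35 to 21.1) and the fold 13.3. It ranked 14 by fold and 7 by q-value. The counting intervals of both summits overlapped, and their difference was not tested. The far summit was also 2545 bp upstream of AT1G47980, a gene annotated as desiccation-like protein that points away from GA2OX4, and 357 bp from the non-coding RNA gene AT1G07457. By position alone it cannot be given to GA2OX4 rather than to AT1G47980.

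To place this pair in the list, summits were counted per gene. A summit with a fold of at least 10 was found at 0.138% of protein-coding genes, and 2 such summits at 0.00364%, which is GA2OX4 alone. Of all protein-coding genes, 0.543% had 2 or more summits of any strength. The next gene by the fold of its second summit was AT2G39170, with folds of 10.7 and 7.89. GA2OX4 enters these shares itself and was chosen for its fold, so they only place it in the list. A close pair of strong summits as such was not particular to GA2OX4. Of neighbouring nuclear summits with folds of at least 10, 4 pairs lay at most 3 kb apart, all on chromosome 1. Besides the GA2OX4 pair, these were 25626787 and 25627929, 1142 bp apart with folds of 18.3 and 12.4, and a row of 3 summits at 27043895, 27046380 and 27048293 with folds of 10.2, 10.5 and 12.0. The rule by gene window did not assign both summits of these other pairs to 1 protein-coding gene.

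A further summit of the locus, at 17701868, was not assigned, because it lay 827 bp past the end of GA2OX4 (peak 17701508 to 17702140). With 149 dex reads against 29 mock reads, the ratio was 4.05 (2.71 to 6.25) and the fold 3.95. Its interval lay below those of both upstream summits, which was not tested, because GA2OX4 was chosen for its fold. MYB112, a MYB factor gene that converges on GA2OX4, ended 2264 bp further on. The 3 summits stood apart on the chromosome. The next summit to the left was 895196 bp away and the next to the right was 132361 bp away.

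**Figure D1:**
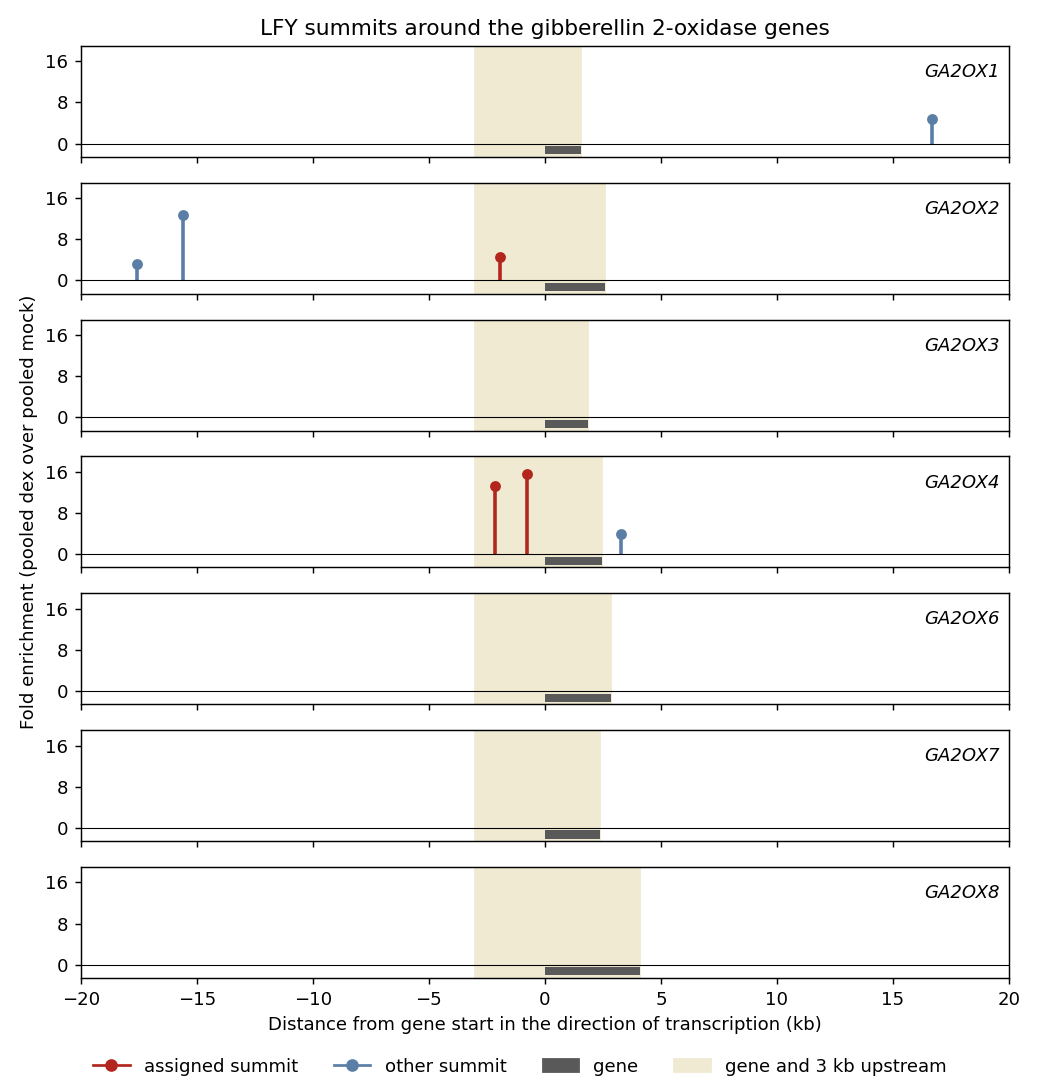
Fold of every LFY summit within 20 kb of the start of each gibberellin 2-oxidase gene, plotted against distance from the gene start in kb in the direction of transcription. Red stems are assigned summits, blue stems are other summits, grey bars are genes and the shaded band is the gene with 3 kb upstream. GA2OX4 had 2 assigned summits (15.5 and 13.3) and GA2OX2 had 1 (4.51), and the other members had none in the band.

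GA2OX2 (AT1G30040, chromosome 1, 10537457 to 10540044, plus strand) carried 1 summit at 10535519, 1938 bp before the gene start (peak 10535380 to 10535900). There were 119 dex reads against 20 mock reads, a ratio of 4.69 (2.90 to 7.95). The fold was 4.51, with a −log10 q-value of 29.2. This was an average peak of the list. It ranked 467 by fold, with 60.3% of nuclear summits below it. The pseudogene AT1G30030 ended 677 bp before it, and no other protein-coding gene had this summit in its window.

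The near GA2OX4 summit had 3.42 times the fold of the GA2OX2 summit, and the far GA2OX4 summit had 2.95 times that fold. The near peak also had 4.11 times the dex reads and was 3.00 times as wide. Mock reads were alike at the 3 summits (24, 27 and 20), so the differences in fold went with dex reads. The interval of the GA2OX2 ratio did not overlap those of the upstream GA2OX4 summits. No test was made of this difference, because GA2OX4 was chosen for it.

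GA2OX2 stood in a wide gap, with 21071 bp to the next protein-coding gene upstream, nMAT1. A much stronger peak lay in that gap (10520819 to 10522183), with its summit 15598 bp upstream of GA2OX2 and 5474 bp past the end of nMAT1. With 372 dex reads against 22 mock reads, the ratio was 13.3 (8.67 to 21.5) and the fold 12.8. A weaker summit, with a fold of 3.29 on 78 dex reads, lay 17557 bp upstream of GA2OX2. Neither was assigned to a protein-coding gene. Of the summits near GA2OX2, the assigned one was therefore not the strongest.

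**Figure D2:**
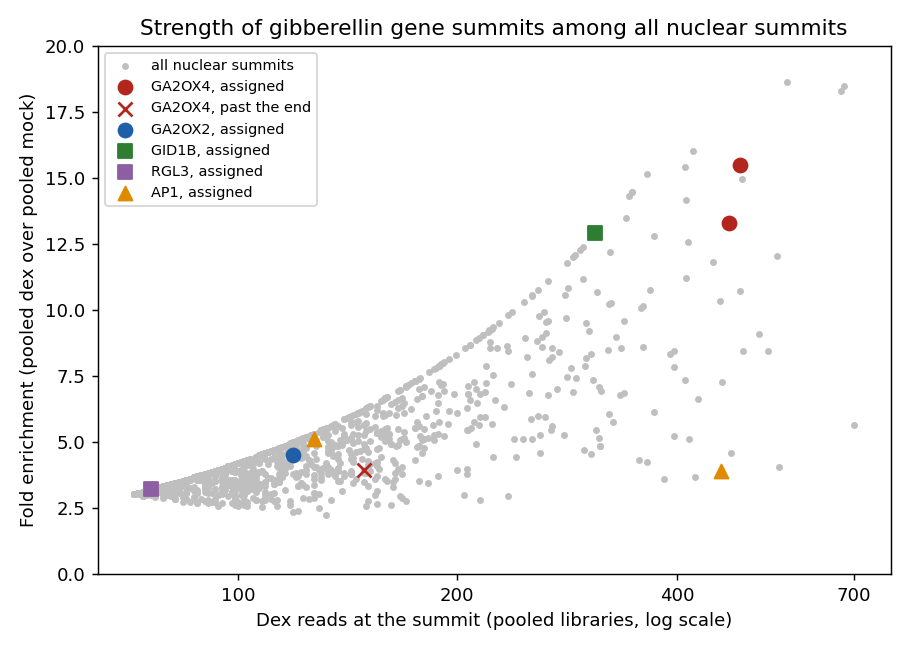
Fold of each nuclear summit (pooled dex over pooled mock) against dex reads at the summit on a log scale. Grey points are all 1177 nuclear summits, and coloured symbols are the summits at GA2OX4, GA2OX2, GID1B, RGL3 and AP1. The GA2OX4 summits with 489 and 472 dex reads lie near the top of the list, and the GA2OX2 summit with 119 dex reads lies near its median of 114.

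For the 5 members without a summit, the nearest one was found in each case. GA2OX1 (AT1G78440, chromosome 1, 29511561 to 29513100, minus strand) had it 15128 bp past its end, at 114 dex reads and a fold of 4.77, between the genes NCED9 and AT1G78400. GA2OX3 (AT2G34555, chromosome 2, 14556988 to 14558857, plus strand) had it 30751 bp past its end, with a fold of 4.08. GA2OX6 (AT1G02400, chromosome 1, 486800 to 489651, plus strand) had it 52157 bp upstream, with a fold of 3.73. These summits have other genes between them and the member.

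Both members of the C20 group were far from any summit. The nearest one to GA2OX7 (AT1G50960, chromosome 1, 18889473 to 18891838, plus strand) lay 148630 bp upstream, with a fold of 3.20. For GA2OX8 (AT4G21200, chromosome 4, 11302682 to 11306770, plus strand) it lay 137999 bp past the gene end, with a fold of 5.16. Over all protein-coding genes the distance to the nearest summit had a median of 41147 bp (quartiles 15977 and 90903). A summit as near or nearer was found for 86.5% of genes in the case of GA2OX7 and for 85.1% in the case of GA2OX8. The same share was 57.7% for GA2OX6, 40.9% for GA2OX3, 24.1% for GA2OX1, 4.88% for GA2OX2 and 2.84% for GA2OX4.

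The upstream windows of the members held no other protein-coding gene. All 7 members had at least 3 kb to the next protein-coding gene upstream, from 3426 bp for GA2OX6 to 21071 bp for GA2OX2, against a median of 944 bp over all protein-coding genes. The outermost assigned summit lay 2166 bp upstream, and the nearest summit of a member without one lay 15128 bp away. At GA2OX4, the unassigned summit 827 bp past the gene end lay just outside the window. Of the 14 protein-coding genes that flank the members, 1 had a summit, against 4.32% of all protein-coding genes. It was AT1G47980, through the far summit already counted for GA2OX4, so this count adds no summit.

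The bound members were not each other's closest relatives by coding sequence. All 7 genes have 3 exons, and coding lengths ran from 966 bp in GA2OX4 to 1026 bp in GA2OX2. The most alike pair was GA2OX2 and GA2OX3, with 76.1% identical bases over 1004 aligned bases, and only GA2OX2 had a summit. The closest relative of GA2OX4 by this measure was GA2OX6, with 64.1% over 916 bases, and GA2OX6 had none. The 2 bound members, GA2OX4 and GA2OX2, were 63.4% identical.

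The core CCANTGG, a palindrome within the longer site that LFY binds, was searched around each summit. The paper reports its LFY consensus motif under most peak summits, and a motif further from this core at nucleosome-occupied sites. The search used here covers the core letters only, so a summit without a match may still hold an LFY site. None of the 3 assigned summits had an exact core within 150 bp, where the share over all nuclear summits was 13.1%, against 3.74% in windows centred 1000 bp to the left. With up to 1 mismatch the shares were 73.6% and 50.3%. The near GA2OX4 summit and the GA2OX2 summit had no match even then. The far GA2OX4 summit had 1, CCAATAG, centred at −14 bp (negative to the left of the summit) and differing from the core by G6A, counted from 1 at the 5′ end of the core on the plus strand. The unassigned summit past the end of GA2OX4 had CTAGTGG (C2T) centred at −1 bp and GCAATGG (C1G) at 14 bp. The strong summit 15598 bp upstream of GA2OX2 had 5 such matches, of which TCAGTGG (C1T) at −6 bp was the nearest.

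The strongest member peak held an exact core away from its summit. This peak is long, at 1565 bp, and no share of exact cores over whole peaks is given beside it, so this is a description only. Within the near GA2OX4 peak, CCACTGG lay at 17697416 to 17697422, 1179 bp before the gene start and 421 bp from the summit. The AP1 promoter peak, the landmark of the study, had the same 7 letters 5 bp from its summit. RGL3, a DELLA gene, had CCAATGG 3 bp from its summit. These cores are shown with their flanks, and with the only other exact core in the 3 kb upstream of a member, that of GA2OX7.
GA2OX4 core, inside the near peak (chr1:17697409-17697429): gaatgtaCCACTGGttccatt
GA2OX7 core, in no peak (chr1:18887797-18887817): agcatgtCCAATGGttaagac
AP1 summit (chr1:25986493-25986533): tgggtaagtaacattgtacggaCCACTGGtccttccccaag
RGL3 summit (chr5:5766184-5766224): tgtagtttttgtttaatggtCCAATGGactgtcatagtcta

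An exact core upstream was found with and without a summit. GA2OX4 and GA2OX7 had 1 each in their 3 kb upstream windows, and the other members had 0. Inside the gene, GA2OX1 and GA2OX3 had 1 each. The GA2OX7 core lay 1666 bp before the gene start and 146964 bp from the nearest summit. Over all protein-coding genes 35.4% had an exact core in the 3 kb upstream, and among those with a summit the share was 37.7%. Cores with up to 1 mismatch numbered 11 for GA2OX4, 9 for GA2OX7, 6 each for GA2OX1, GA2OX2, GA2OX6 and GA2OX8, and 4 for GA2OX3.

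W-boxes were counted after the sequences had been seen. A W-box lay within 150 bp of 47.7% of nuclear summits and in 28.8% of the windows to their left. The near GA2OX4 summit had GGTCAA centred at −43.5 bp. The far GA2OX4 summit had TTGACT and AGTCAA side by side, centred at 92.5 and 98.5 bp. The GA2OX2 summit had none. In its 3 kb upstream window GA2OX4 had 9 W-boxes, against 0 to 4 in the other members and a median of 3 over all protein-coding genes, of which 1.81% had as many or more. Over genes with a summit the median was 4. Base composition at the member summits was near that of the list, with 69.1% A and T at the near GA2OX4 summit, 67.1% at the far one and 64.8% at GA2OX2, against a median of 67.1% over nuclear summits.

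Among the other genes of the gibberellin pathway, 2 of 30 listed protein-coding genes had a summit by the same rule, which held for 4.32% of all protein-coding genes. None of the 14 biosynthesis genes had one. These are 5 early genes (CPS, KS, KO, KAO1 and KAO2), 5 GA20-oxidase genes and 4 GA3-oxidase genes, and their nearest summits lay from 5063 bp upstream (GA3OX3) to 352863 bp away (GA20OX4). The 4 other inactivation genes, GAMT1 and GAMT2 for gibberellin methylation and CYP714A1 and CYP714A2 for oxidation by cytochromes P450, had none. AT5G58660 and AT3G47190 were listed as further gibberellin 2-oxidase genes outside the members. The annotation names them only as 2-oxoglutarate and Fe(II)-dependent oxygenases. Neither had a summit by the rule, with their nearest summits 248564 bp and 7999 bp away.

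GID1B, 1 of the 3 gibberellin receptor genes (AT3G63010, chromosome 3, 23289243 to 23291486, plus strand), had a strong summit 2145 bp upstream of its start. The peak (23286745 to 23287756) had 309 dex reads over the genome-wide background of 18.0 reads, a fold of 12.9 and a ratio of 13.5 (12.1 to 15.1), and ranked 15 by fold. A core with 1 mismatch, CCAATGA (G7A), was centred at −46 bp. The interval takes the background as known and is therefore narrower than those at GA2OX4, which it overlapped. A second summit, with a fold of 4.88, lay 154 bp past the end of GID1B and was 2742 bp upstream of AT3G63020. GID1A and GID1C had no assigned summit, and their nearest ones lay 45597 bp and 316368 bp past their ends.

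RGL3 was the only 1 of the 5 DELLA genes with an assigned summit (AT5G17490, chromosome 5, 5763989 to 5766246, minus strand). The summit fell in non-coding exon sequence, 42 bp into RGL3, and 1175 bp upstream of the divergent gene AT5G17500. The peak (5766128 to 5766327) was weak, at 76 dex reads, a fold of 3.21 and a ratio of 3.33 (2.61 to 4.20). Its −log10 q-value of 11.6 was near the threshold of the list, 10. The DELLA gene RGA had a summit of fold 3.27, but 1193 bp past its end, and the F-box genes SLY1 and SNE, which act in DELLA degradation, had no assigned summit.

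The locus of AP1 (AT1G69120), a floral meristem identity gene, gives a scale for these values. Its promoter summit, 164 bp before the gene start, had 460 dex reads against 92 mock reads and a ratio of 3.94 (3.14 to 4.98). A summit in an AP1 intron had 127 dex reads and a ratio of 5.35 (4.43 to 6.42). The near GA2OX4 summit thus had a similar number of dex reads, 489, over far fewer mock reads, 24. By fold, GA2OX4 ranked 5 and the AP1 promoter summit 648, whereas by dex reads they ranked 11 and 16.

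**Figure D3:**
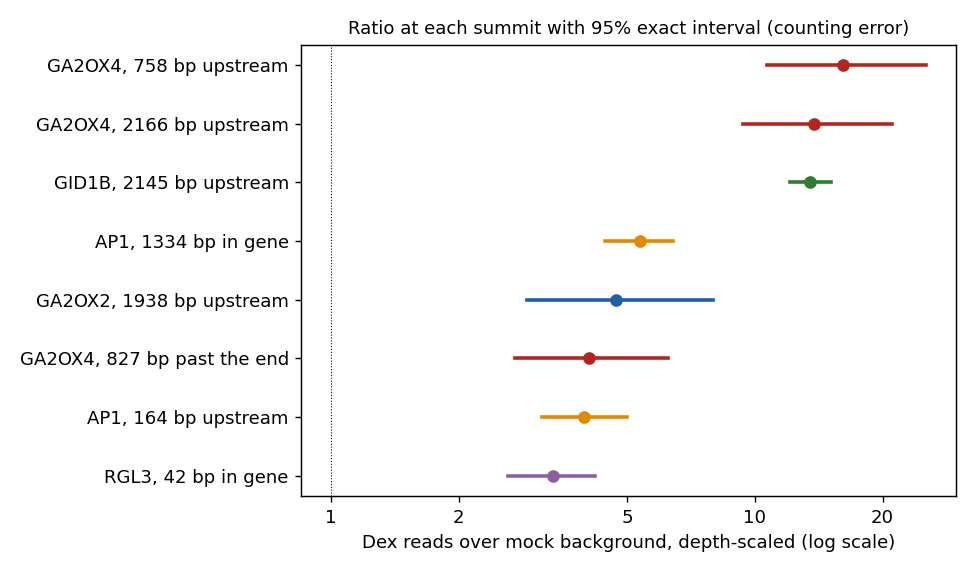
Depth-scaled ratio of dex reads over mock background at each summit (points, log scale) with 95% exact intervals for counting error in the pooled libraries (bars). The dotted line marks a ratio of 1. Both upstream GA2OX4 summits (16.1 and 13.8) and the GID1B summit (13.5) lie above the intervals of GA2OX2, both AP1 summits, RGL3 and the summit past the end of GA2OX4. GA2OX4 was chosen for its fold, so its place here is a description without a test.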

How the data were processed

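Reads were processed by the authors. Per the labels and the methods, they were trimmed with Trimmomatic, mapped to TAIR10 with Bowtie2 and kept when uniquely mapped, and MACS2 called peaks on the pooled dex libraries against the pooled mock libraries, without a fragment model and with automatic duplicate removal. Inputs were not part of the calling. The authors kept peaks with a −log10 q-value of at least 10. The deposited fold is a ratio, the deposited −log10 p-value and −log10 q-value belong to the summit, and the deposited score, which in all 1181 peaks equals the q-value column times 10 without its decimals, was not used further. The 4 chloroplast peaks were left out.

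Genes and sequence came from RefSeq TAIR10.1 (Columbia), whose nuclear chromosomes hold all 1177 nuclear peak intervals, so Landsberg erecta sites are read with Columbia letters. Positions count from 1. Dex reads and mock background were solved from fold and p-value under the model of MACS2, where the background is the highest of 4 estimates (genome-wide, summit window, 1 kb, 10 kb) and is therefore biased upwards. All 1181 peaks were solved. On 1000 peaks simulated under the same model the solver returned the true reads in 100%, which checks the solving and not the model itself. Ratios were given 95% exact intervals (conditional binomial, or Poisson with a genome-wide background). Reads carry no molecular identifiers. Coding sequences were aligned with Biopython 1.88 (Python 3.11.15, SciPy 1.17.1). Members, gene lists and the fold limit of 10 were chosen with earlier results of these data known. All members and the listed pathway genes with a summit are named, with the genes beside those summits. Other genes named were chosen after their values were seen. No comparison has a test.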

Additional observations from a re-analysis of the deposited data

How the results depend on the processing

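Of 27 alternatives to 7 results, 13 left the result within its margin and 14 moved it. The margin was 1.5 times for counts and ranks, and for the background share its 95% Wilson interval (4.08 to 4.56%). The ratio of the near GA2OX4 summit to the strongest paralog summit was 3.42 also with recovered reads, which were solved from the same folds, and with 5 kb upstream, where no paralog summit was added, so neither bears on its stability. With 1 kb upstream no paralog had a summit and the ratio could not be given. With peaks kept from a −log10 q-value of 20, genes of the pathway list with a summit numbered 1, and the background share was 2.72%. At 50, bound members numbered 1 (GA2OX4), list genes 1 and the share 0.998%. With 1 kb upstream, bound members numbered 1, assigned summits 1, list genes 1 and the share 2.43%. With 5 kb upstream the share was 6.13%, and over all annotated genes and pseudogenes it was 3.74%. The rank of the near GA2OX4 summit was 11 by dex reads, and the cause was not tested. Assigned summits with an LFY core numbered 1 over the whole peak interval and 1 with up to 1 mismatch, against 0. No paired analysis was possible because the libraries were pooled before calling, and no replicate could be left out. Pooling and the threshold of the list limit what a missing peak can show.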

Other observations

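Of the listed gibberellin genes without an assigned summit, 3 had 1 at most 5063 bp away and not in their window. RGA, a DELLA gene, had a summit 1193 bp past its end with a fold of 3.27 on 86 dex reads, assigned to AT2G01560. At that summit a core with 1 mismatch, TCAATGG (C1T), centred at −24 bp, overlapped a W-box centred at −26.5 bp. Within 150 bp, 73.6% of all nuclear summits had a core with up to 1 mismatch and 47.7% had a W-box. SNE, which codes for an F-box protein of DELLA degradation, had a summit 1806 bp past its end with 95 dex reads, assigned to OBE2. Around the SNE summit, TCATTGG (C1T) was centred at −19 bp, and W-boxes at 13.5 and −115.5 bp. GA3OX3, a gene of the last step to bioactive gibberellin, had a summit 5063 bp upstream with a fold of 4.45 on 106 dex reads, assigned to AT4G21680. Neither motif was found within 150 bp of the GA3OX3 summit. All 3 had fewer dex reads than either upstream GA2OX4 summit (489 and 472). Those ranked 11 and 14 by dex reads among nuclear summits, so nearly all summits of the list had fewer.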
